A study of Mus musculus with 46 samples.

Results

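Mog encodes myelin oligodendrocyte glycoprotein, a membrane protein of the outermost myelin layer and a protein that appears late in oligodendrocyte maturation. Pups of the same rearing condition differed several-fold in Mog in the hippocampus at postnatal day 17, and the pups high in Mog were set against those low in Mog. Pups were ranked by the relative abundance of the Mog transcript (TPM, a length-corrected share of all transcripts in a library) within each rearing condition, and the 7 highest and 7 lowest of each were taken as the high-Mog and low-Mog sets. This gave 21 high-Mog and 21 low-Mog pups, 42 of the 46 pups of the series, and the 4 pups between them were left out. The sets were chosen by Mog, so its own difference is a description and has no test. For every other gene, the comparison asks only whether it varied together with Mog among pups of the same rearing. The sets are not treatment groups of the study.

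The 46 libraries were made from the left hippocampus of Balb/cByj pups of both sexes at day 17, 1 library per pup. All pups were raised from birth either under control conditions (CTL, with standard bedding and a nestlet), under limited bedding (LB, with less bedding and no nestlet), or under unpredictable postnatal stress (UPS, whose procedure the sources used here do not describe). All were anesthetized with chloral hydrate before the hippocampus was frozen, and no genetic change was introduced. The high-Mog set held 14 female and 7 male pups, and the low-Mog set held 9 female and 12 male pups, so sex was a term of every model of the 42 pups unless stated. Several pups came from each litter, and no label says which. Every p-value therefore counts littermates as independent samples, which makes it too small if pups of a litter are alike.

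As background, oligodendrocyte progenitors divide, commit, and become premyelinating cells before they switch on the genes of compact myelin, under transcription factors that include Olig1, Olig2, Sox10 and Myrf. In the rodent hippocampus, much of this switch falls in the weeks after birth, later than in the brainstem. In whole tissue, fewer oligodendrocytes and less RNA per oligodendrocyte cannot be told apart.

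Mog lies on chromosome 17 (37010743 to 37023398, minus strand, GRCm38). In CTL, Mog lay from 79.2 to 112 TPM in the 7 high-Mog pups (median 88.3) and from 32.1 to 74.6 TPM in the 7 low-Mog pups (median 66.4). In LB, it lay from 33.9 to 80.0 TPM (median 58.7) in the high-Mog pups and from 10.1 to 29.5 TPM (median 20.6) in the low-Mog pups. In UPS, the ranges were 52.5 to 90.9 TPM (median 59.0) and 16.2 to 51.4 TPM (median 25.4). The highest pup exceeded the lowest 3.49-fold in CTL, 7.93-fold in LB and 5.61-fold in UPS. The ratio of the set means was 1.55 in CTL, 2.87 in LB and 2.41 in UPS, so the split was narrowest in CTL.

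The thresholds fell in places where pups lay close together. The middle CTL pup stood at 76.4 TPM, between 79.2 and 74.6 TPM in the nearest pups of the sets. The 2 middle LB pups stood at 32.0 and 32.8 TPM, between 33.9 and 29.5 TPM. The middle UPS pup stood at 51.9 TPM, between 52.5 and 51.4 TPM. The low-Mog pup at 51.4 TPM, the male UPS pup 7, was close to the high-Mog pups, while the next low-Mog UPS pup stood at 28.6 TPM. The high-Mog LB pups overlapped in Mog with the low-Mog CTL pups, so a set name describes a rank within a rearing and not a level.

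**Figure D1:**
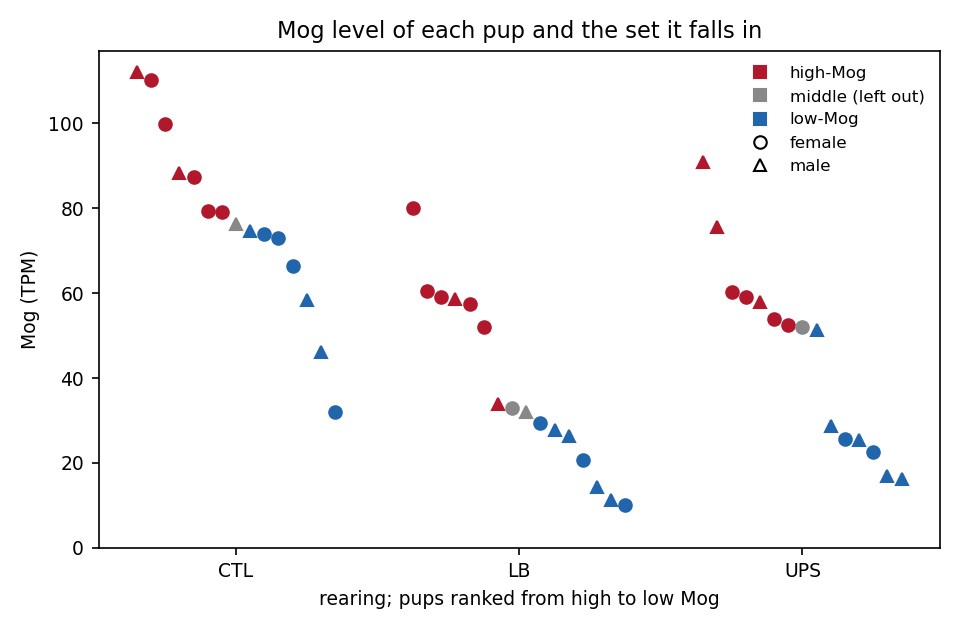
Mog in TPM (vertical axis) of each of the 46 pups, ranked from high to low within CTL, LB and UPS, with colour for the set and shape for sex. CTL pups run from 32.1 to 112 TPM, LB pups from 10.1 to 80.0 TPM and UPS pups from 16.2 to 90.9 TPM.

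Mitochondrial genes took 9.89% to 14.2% of the TPM in high-Mog pups and 9.52% to 14.1% in low-Mog pups (permutation within rearing, adjusted p = 0.13). Genes with a TPM above 0 numbered 21299 to 23941 and 21150 to 24380 (adjusted p = 0.08), and ribosomal protein genes took similar shares (adjusted p = 0.45). These tests were 2-sided, had no sex term and were adjusted over 30 measures, the other 27 being the summed TPM of the gene lists below. In all, 11 of the 30 passed, each of them a list sum. Without the low-Mog female UPS pup 2, 14 of the 30 passed. Those that passed only without it were the glucocorticoid sum (higher in high-Mog pups, permutation adjusted p = 0.004), the cell cycle sum (lower, 0.042) and the number of genes above 0 TPM (lower, 0.049). With this pup kept, none of these passed in females alone (0.44, 0.87 and 0.29) or in males alone (0.084, 0.37 and 0.64). Among males, the median number of genes above 0 TPM was 23557 in high-Mog and 23318 in low-Mog pups, the reverse order. Summed markers of dentate granule neurons lay between 231 and 434 TPM and those of CA1 and CA3 pyramidal neurons between 607 and 911 TPM, so every library held the labelled tissue. The dentate sum was higher in high-Mog pups (median 321 against 307 TPM, permutation adjusted p = 0.036) and the CA1 and CA3 sum was lower (median 753 against 799.7 TPM, adjusted p = 0.034). Neither passed in females alone (0.086 and 0.44) or in males alone (0.61 and 0.087). The part of such a shift in tissue makeup in the results below was not tested. Summed markers of thalamus lay between 125 and 187 TPM. The low-Mog female UPS pup 2 stood apart in several lists described below, and the CTL and LB females numbered 9 lay nearer to the male libraries. To compare libraries by sex, Xist, Ddx3y, Eif2s3y, Kdm5d and Uty were left out, and other genes of the X chromosome were kept. Over the other tested genes, 23 of 25 female libraries had a higher median correlation with the other female libraries and all 21 male libraries with male ones. The 2 exceptions were the number 9 females, 1 in the high-Mog CTL set and 1 in the low-Mog LB set. Xist stood at 113 and 138 TPM in them and Ddx3y at 0, as in females. Each also carries an earlier sample name of the form used for males. Results were also computed without these pups.

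Across the genome, 377 of 13057 genes (2.89%) were higher and 145 (1.11%) were lower in high-Mog pups. These genes passed limma on log2(TPM + 1) at a Benjamini-Hochberg threshold of 0.05. Most differences were small. Their median absolute size was 0.19 on the log2 scale, and 56 of the 522 genes reached 0.4. The median over all tested genes was 0.01. Of the 522 genes, 516 had the same direction in CTL, LB and UPS, a count favoured by having been picked on the mean of the 3. The split of 377 higher and 145 lower became 327 and 258 after quantile normalization. The count of lower genes also rested on single LB pups. It fell to 77 without the high-Mog male LB pup 5, to 81 without the low-Mog female LB pup 9 and to 96 without the low-Mog male LB pup 2.

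The genes of mature oligodendrocytes and myelin rose together with Mog. Of 38 listed genes besides Mog, 37 passed the filter on low values, 32 of these were higher in high-Mog pups and none was lower, where 2.89% of all genes were higher. The list's median difference was 0.71 on the log2 scale, and all 37 differences were positive. The largest belonged to Mal (myelin and lymphocyte protein, a raft protein of compact myelin), Ermn (ermin, a cytoskeletal protein of oligodendrocyte processes), Mobp (a basic protein of myelin) and Opalin (a glycoprotein of the paranodal loops).

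Mal showed the widest range. In CTL it lay from 106 to 193 TPM in high-Mog pups (median 145) and from 29.9 to 121 TPM in low-Mog pups (median 99.6), with overlap. In LB it lay from 34.7 to 113 TPM (median 79.5) and from 7.91 to 30.9 TPM (median 19.9), with no overlap between the sets. In UPS it lay from 73.0 to 126 TPM (median 81.9) and from 13.7 to 74.6 TPM (median 23.9). The UPS overlap came from a single low-Mog pup, female 2, in which Mal stood at 74.6 TPM beside a Mog of 25.6 TPM. The difference between the sets was 1.48 on the log2 scale (standard error 0.20, limma adjusted p = 2.43e-06), and Mal was above the low-Mog mean of its rearing and sex in 21 of 21 high-Mog pups.

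Ermn gave a similar pattern at a lower level. In LB it lay from 7.25 to 24.2 TPM in high-Mog pups and from 2.12 to 6.60 TPM in low-Mog pups. In UPS it lay from 17.1 to 25.2 TPM and from 4.09 to 12.9 TPM. The sets did not overlap in LB and UPS, and they overlapped in CTL (20.8 to 40.8 TPM and 8.99 to 27.1 TPM). Its difference was 1.32 (standard error 0.16, limma adjusted p = 2.7e-07), higher in 21 of 21 high-Mog pups.

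Mbp, myelin basic protein, which compacts the myelin sheath, was at 773 ± 221 TPM in high-Mog pups and 507 ± 199 TPM in low-Mog pups (SD, n = 21 each), a difference of 0.71 (limma adjusted p = 2.09e-05). In LB, Mbp ranged from 445 to 797 TPM in high-Mog pups and from 188 to 473 TPM in low-Mog pups, so the lowest high-Mog pup lay within the low-Mog range. Cnp, a cyclic nucleotide phosphodiesterase that keeps cytoplasmic channels in myelin open, had a difference of 0.59 (limma adjusted p = 1.17e-06).

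Aspa, aspartoacylase, which releases acetate from N-acetylaspartate in oligodendrocytes, was the only called gene whose sets did not overlap in any of the 3 rearings. It is named after its values were seen. Aspa lay from 6.37 to 8.67 TPM and from 2.98 to 5.91 TPM in the CTL sets, from 3.57 to 6.54 TPM and from 0.858 to 2.74 TPM in the LB sets, and from 3.55 to 6.19 TPM and from 0.676 to 3.45 TPM in the UPS sets. Its difference was 0.86 (limma adjusted p = 2.14e-07).

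Adhesion, junction and iron-handling genes of the sheath belonged to the same group. Mag, an adhesion protein of the periaxonal membrane, had a difference of 0.97, and Cldn11, the claudin of myelin tight junctions, had 0.92. Gjb1, the gap junction protein connexin 32, had 1.00, and Trf, transferrin, which oligodendrocytes secrete, had 0.90. Gsn, the actin-severing protein gelsolin, had 1.00 (limma adjusted p of 2.56e-06 or less for these 5 genes). At the other end, Qdpr (0.34), Enpp2 (0.47), Evi2a (0.19), Ndrg1 (0.11) and Anln (0.01) did not pass. Anln, anillin, a septin-binding protein of myelin, was at 10.7 ± 1.38 TPM and 10.6 ± 5.53 TPM (SD, n = 21 each), and the highest value, 34.2 TPM, was that of the low-Mog female UPS pup 2. Without that pup the difference of Anln was 0.13 (limma adjusted p = 0.0989). Genes outside the list, named after their values were seen, included Erbb3, a neuregulin receptor (0.68, limma adjusted p = 1.01e-06), Lpar1, a lysophosphatidic acid receptor (0.67), and Adamts4, a metalloprotease (0.62).

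The likeness of each gene to Mog was measured over all 46 pups as a correlation of log2(TPM + 1) after the mean of each rearing and sex was removed. The 10 genes most like Mog included Mobp, Tmem88b, Cldn11, Mag, Cnp, Fa2h, Ugt8a, Ermn and Mal, with Pearson coefficients from 0.97 to 0.98. The points share libraries, and TPM values of 1 library share a total, so these values carry no p. The sets were cut from this same relation.

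Promoters of these genes are shown because the genes moved together. RefSeq promoters (300 bases, GRCm38.p6, from 250 before the start site) were found for 9 of the 11 genes, Mog included. Letters of a Myrf motif (CTGGCAC or CTGGTAC, either strand) stood in a promoter of 3 of the 9 genes and of 8.1% of all 27025 genes (7.1% of their 32851 promoters). Letters of a Sox motif (ACAAAG or ACAATG, either strand) stood in 5 of the 9 genes and in 31.7% of all genes (28.6% of promoters). No Mal, Cldn11 or Ugt8a promoter held either. The sequences below run 5′ to 3′ on the gene's strand, with matches to either motif in capitals. The Mog promoter (chr17:37023349-37023648, minus strand) held 1 Myrf match that begins 83 bases before the start site. Mag has 3 promoters in the table, of which the one at chr7:30914272-30914571 held neither motif and the other 2 overlap and share their matches. The Mag promoter shown (chr7:30914814-30915113, minus strand) and the Cnp promoter (chr11:100574689-100574988, plus strand) each held 1 Myrf and 1 Sox match, and the Mobp promoter (chr9:120149492-120149791, plus strand) held 6 Sox matches.
Mog: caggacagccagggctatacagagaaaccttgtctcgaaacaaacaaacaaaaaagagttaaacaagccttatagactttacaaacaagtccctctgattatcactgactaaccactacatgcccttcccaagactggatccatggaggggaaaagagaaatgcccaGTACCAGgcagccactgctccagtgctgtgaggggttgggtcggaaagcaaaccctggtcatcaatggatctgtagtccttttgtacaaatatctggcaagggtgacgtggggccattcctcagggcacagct
Mag: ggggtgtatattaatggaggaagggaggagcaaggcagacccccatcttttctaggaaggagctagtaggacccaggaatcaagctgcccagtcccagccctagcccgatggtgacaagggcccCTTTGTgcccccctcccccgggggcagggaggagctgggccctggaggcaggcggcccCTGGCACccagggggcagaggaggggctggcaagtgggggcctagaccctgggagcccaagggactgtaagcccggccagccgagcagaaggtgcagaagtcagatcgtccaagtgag
Cnp: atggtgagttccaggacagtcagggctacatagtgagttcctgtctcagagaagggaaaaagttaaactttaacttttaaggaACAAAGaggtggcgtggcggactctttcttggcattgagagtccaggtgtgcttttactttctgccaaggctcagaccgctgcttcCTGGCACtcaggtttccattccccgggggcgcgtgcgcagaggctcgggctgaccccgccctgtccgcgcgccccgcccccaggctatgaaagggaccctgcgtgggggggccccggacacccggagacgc
Mobp: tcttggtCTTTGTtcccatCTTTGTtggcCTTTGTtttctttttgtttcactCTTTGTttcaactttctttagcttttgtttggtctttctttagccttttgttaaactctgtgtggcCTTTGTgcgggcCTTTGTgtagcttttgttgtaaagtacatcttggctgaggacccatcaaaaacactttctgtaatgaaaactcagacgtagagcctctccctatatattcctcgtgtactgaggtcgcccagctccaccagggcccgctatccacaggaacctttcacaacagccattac

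A match is a description of letters and not a bound site. No binding data were analysed here.

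Enzymes that make the galactolipids of myelin were higher in the same pups, while those of sterol synthesis did not pass. Of 12 galactolipid and ceramide genes, 6 were higher and none lower, against 2.89% of all genes. These were Fa2h, which hydroxylates fatty acids (0.95, limma adjusted p = 1.84e-07), Ugt8a, which adds galactose to ceramide (0.89), Gal3st1, which makes sulfatide (0.43), the fatty acid elongases Elovl7 (0.58) and Elovl1 (0.32), and the ceramide synthase Cers2 (0.30). Fa2h, Ugt8a and Gal3st1 are also members of the mature oligodendrocyte list and were counted there too. Ugt8a lay from 83.9 to 117 TPM in high-Mog and from 37.2 to 71.2 TPM in low-Mog UPS pups, without overlap, and the sets overlapped in CTL and LB. The other 6, Sptlc1, Sptlc2, Degs1 (the ceramide desaturase, -0.05), Galc, Asah1 and Kdsr (0.06), did not pass. Of 22 sterol and fatty acid synthesis genes, 0 passed in limma (at an unadjusted p under 0.05 there were 4). The nearest, Scd2, a stearoyl-CoA desaturase, had a difference of 0.11 and a limma adjusted p = 0.0502, and it passed in 9 of the 42 fits without 1 pup (lowest adjusted p = 0.0265, without the male LB pup 3). Their median difference was 0.05, beside 0.01 for all genes.

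Fewer genes passed among the transcription factors and the earlier stages of the lineage. Of 18 transcription factors of the lineage, 6 were higher and none lower, where 2.89% of all genes were higher. Nkx6-2 and Myrf, among these 6, are also members of the mature oligodendrocyte list and were counted there too. Nkx6-2, a homeobox factor of mature oligodendrocytes, had the largest difference (0.85, limma adjusted p = 9.89e-05). Myrf, the factor that switches on myelin genes, was at 22.4 ± 4.58 TPM and 17.9 ± 4.02 TPM (SD, n = 21 each), a difference of 0.37 (limma adjusted p = 0.000103) that was seen in 21 of 21 high-Mog pups. Its sets did not overlap in LB (17.4 to 21.6 TPM and 11.2 to 17.0 TPM) and overlapped in CTL and UPS. Zfp488, a co-factor of oligodendrocyte differentiation, had 0.28 (limma adjusted p = 0.00127), and Id4, an inhibitor of DNA binding, had 0.16 (limma adjusted p = 0.0386, lost in 14 of the 42 fits without 1 pup, up to 0.0724 without the female LB pup 9).

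Sox10 and Olig1, which are present from the progenitor stage on, did not pass once sex was left out of the model. Sox10 had a difference of 0.21 (limma adjusted p = 0.00813), and Olig1 had 0.23 (limma adjusted p = 0.00526). With rearing alone in the model, the differences were 0.10 (adjusted p = 0.48) and 0.12 (adjusted p = 0.47). In LB, the median of Sox10 was 28.3 TPM in high-Mog and 31.8 TPM in low-Mog pups, the reverse of the fitted order. These LB sets held 5 females of 7 and 3 females of 7. Olig2 had a difference of 0.22 and did not pass (limma adjusted p = 0.07). Without the female UPS pup 2, in which Olig2 stood at 12.9 TPM, its difference was 0.14 (adjusted p = 0.0381), and it also passed without the female CTL pup 8 (adjusted p = 0.0468).

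Of 17 genes typical of committed or newly formed oligodendrocytes, 5 were higher and 1 was lower, where 2.89% of all genes were higher and 1.11% lower. Enpp6, a choline phosphodiesterase that marks cells at the start of myelination, was at 27.9 ± 6.03 TPM and 21.6 ± 5.18 TPM (SD, n = 21 each), a difference of 0.38 (limma adjusted p = 0.0106). Its difference was 0.69 in UPS, 0.29 in CTL and 0.15 in LB. Cnksr3, a scaffold protein, had 0.39 (limma adjusted p = 0.0013). Rras2, a small GTPase, was the lower gene (-0.20, limma adjusted p = 0.00856).

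Of 18 progenitor genes, 0 passed in limma in either direction (3 had an unadjusted p under 0.05), and their median difference was 0.01, beside 0.01 for all genes. Pdgfra, the receptor for platelet-derived growth factor on progenitors, lay from 53.2 to 63.8 TPM in high-Mog CTL pups and from 51.4 to 70.2 TPM in low-Mog CTL pups. In LB it lay from 46.7 to 66.6 TPM and from 55.0 to 64.5 TPM, and in UPS from 58.8 to 65.5 TPM and from 49.6 to 64.7 TPM. The sets overlapped in each rearing, and the difference was 0.00 (standard error 0.04, limma adjusted p = 0.97). Vcan, a matrix proteoglycan, had the smallest p of the list (0.17, limma adjusted p = 0.06) and passed in 7 of the 42 fits without 1 pup (lowest adjusted p = 0.0385, without the male LB pup 3).

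**Figure D2:**
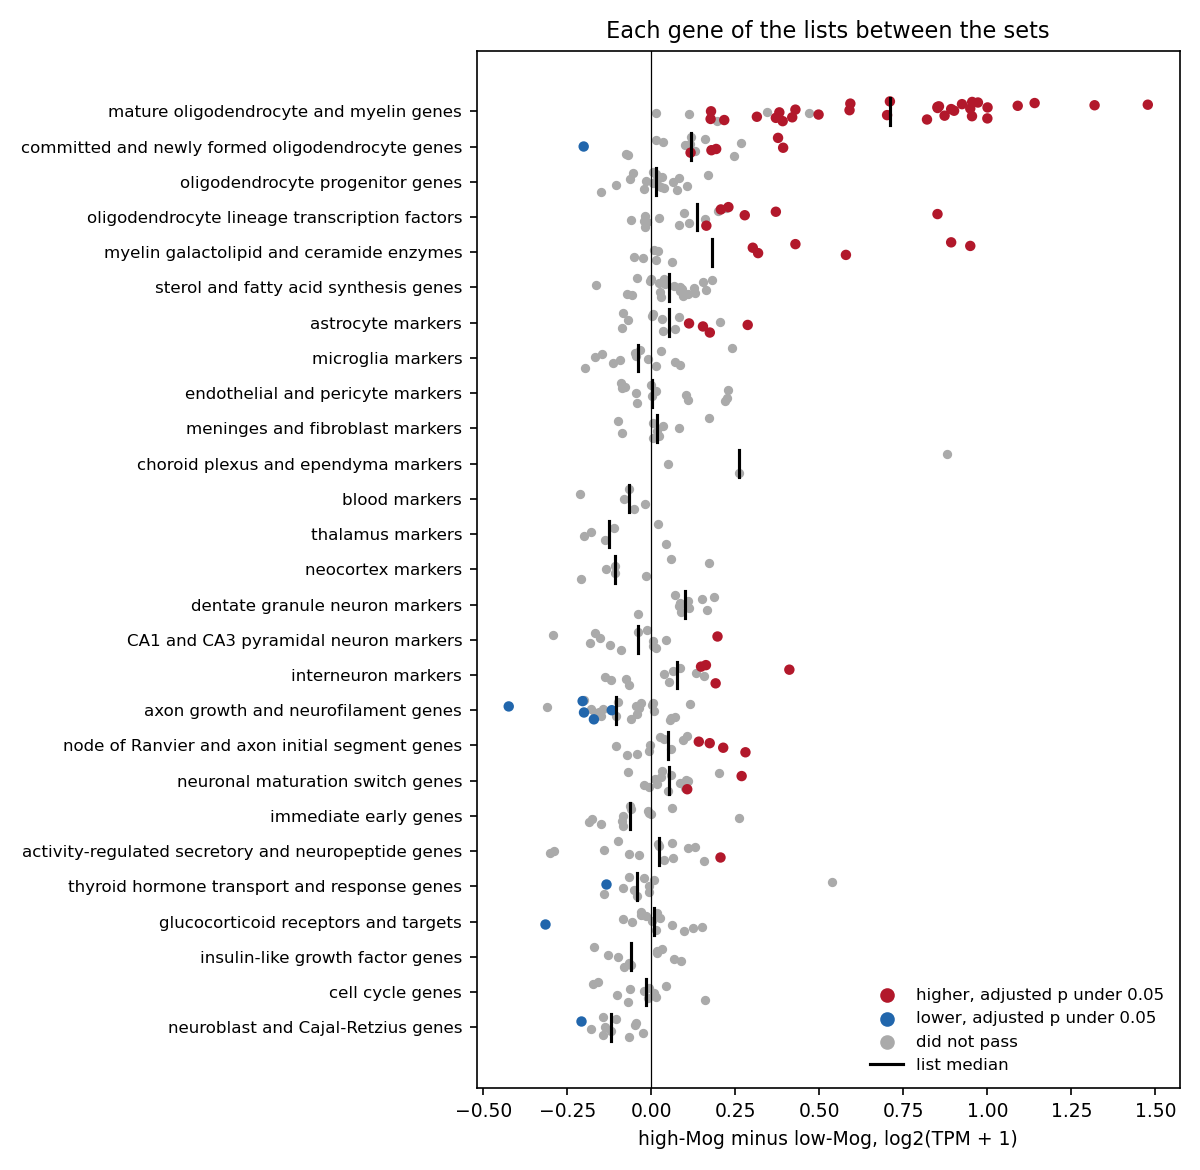
Difference between the sets on the log2(TPM + 1) scale (horizontal axis) for each gene of 27 lists, with red for higher and blue for lower at an adjusted p under 0.05, grey for genes that did not pass, and a black line at the list median. The mature oligodendrocyte list has its median at 0.71, and the progenitor list has its median at 0.01.

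Of 14 genes of the node of Ranvier and axon initial segment, 4 were higher and none lower, where 2.89% of all genes were higher. The other 10 did not pass, 5 of the 14 differences were negative and the list's median was 0.05. Nfasc, neurofascin, whose isoforms hold the paranode and the node together and which oligodendrocytes also make, was at 191 ± 23.7 TPM and 161 ± 28.3 TPM (SD, n = 21 each), a difference of 0.28 (limma adjusted p = 4e-04). Cntnap1, the axonal partner of neurofascin at the paranode, had 0.21 (limma adjusted p = 0.000165, and 0.0843 with a difference of 0.15 when sex was left out of the model). The juxtaparanodal potassium channels Kcna2 (0.17, adjusted p = 0.0239) and Kcna1 (0.14, adjusted p = 0.0198) passed in limma as well, Kcna2 not without the female LB pup 9 (adjusted p = 0.0521). Channels and anchors of the node itself did not, among them Scn8a (0.04), Kcnq3 (-0.11) and Ank3 (-0.04). Neither did Cntn1 and Cntnap2, which belong to the paranode and juxtaparanode, so calls did not follow position at the node.

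Of 14 interneuron markers, 4 were higher and none lower, where 2.89% of all genes were higher. In LB, 8 of the 14 differences were negative, and the summed list had medians of 1883 and 1892 TPM (permutation adjusted p = 0.45). Pvalb, the calcium buffer parvalbumin of fast-spiking interneurons, lay in LB from 40.6 to 65.3 TPM in high-Mog pups (median 60.6) and from 17.2 to 42.8 TPM in low-Mog pups (median 39.6). In CTL it lay from 59.8 to 77.8 TPM and from 49.0 to 69.5 TPM, and in UPS from 44.2 to 66.5 TPM and from 36.2 to 50.4 TPM. The sets overlapped in each rearing. Over the 3 rearings the difference was 0.41 (standard error 0.09, limma adjusted p = 0.00354), with 21 of 21 high-Mog pups above the low-Mog mean of their rearing and sex. Kcnc1, the fast potassium channel Kv3.1 of these cells, had 0.19 (limma adjusted p = 0.000386). Gad2 (0.15, adjusted p = 0.019) and Gad1 (0.16, adjusted p = 0.0376), which make GABA, also passed in limma, and Gad1 missed in 8 of the 42 fits without 1 pup (up to 0.0796 without the male LB pup 5). Vip (0.13) and Reln (-0.12), markers of other interneuron classes, did not pass.

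Of 27 genes of axon growth and neurofilaments, 5 were lower and none higher, where 1.11% of all genes were lower, and the list's median difference was -0.11. The other 22 did not pass. By rearing, 18 differences were negative in CTL, 25 in LB and 13 in UPS, where the list's median was 0.01. The summed list was lower in high-Mog pups by 759 TPM on average within rearing (permutation adjusted p = 0.017, but 0.25 in females alone and 0.19 in males alone). Dpysl3, a collapsin response mediator protein of growth cones, lay in LB from 97.0 to 202 TPM in high-Mog pups (median 128) and from 168 to 328 TPM in low-Mog pups (median 217). In CTL its medians were 105 and 130 TPM and in UPS 136 and 166 TPM, with overlapping sets in each rearing. Its difference was -0.42 (standard error 0.09, limma adjusted p = 0.00361). Stmn2, a microtubule-destabilizing protein of growth cones, was at 724 ± 74.0 TPM and 831 ± 135 TPM (SD, n = 21 each), a difference of -0.20 (limma adjusted p = 0.00375). Crmp1 (-0.20), Klf7 (-0.17) and Basp1 (-0.12) were the other 3. Gap43, the growth-associated protein, had -0.20 and did not pass (limma adjusted p = 0.09), but passed without the female UPS pup 2 (-0.26, adjusted p = 0.0061) and without the male UPS pup 7 (adjusted p = 0.0488). Its sets were 344 to 490 TPM and 479 to 652 TPM in LB, and 385 to 515 TPM and 285 to 610 TPM in UPS. The neurofilament genes Nefm (-0.03) and Nefh (0.12) did not pass.

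The gene most opposite to Mog was Cxadr, a cell adhesion molecule of immature neurons and growth cones and the receptor of coxsackieviruses and adenoviruses (Pearson coefficient -0.81 over 46 pups). Cxadr lay in LB from 30.3 to 58.8 TPM in high-Mog pups (median 43.5) and from 51.9 to 116 TPM in low-Mog pups (median 79.9). In CTL it lay from 30.6 to 35.7 TPM and from 27.6 to 57.4 TPM, and in UPS from 36.8 to 53.2 TPM and from 40.7 to 73.8 TPM. Its difference was -0.48 (standard error 0.09, limma adjusted p = 0.00104), and 0 of 21 high-Mog pups lay above the low-Mog mean of their rearing and sex. Stmn2 and Basp1 were among the next 4, with Shtn1, shootin 1, a clutch protein of axon outgrowth (-0.31, limma adjusted p = 0.00216), and Ppp1r14c, a phosphatase inhibitor (-0.23, limma adjusted p = 0.000687). Of 11 neuroblast and Cajal-Retzius genes, all had a negative difference over the rearings together, and 1 passed, where 1.11% of all genes were lower. It was Sox4, a transcription factor of young neurons (-0.21, limma adjusted p = 0.00705). By rearing, 9 of the 11 differences were negative in CTL, 11 in LB and 6 in UPS. The list's median was -0.07 in CTL, -0.33 in LB and -0.005 in UPS. The list's sum was lower in high-Mog pups by an average of 86.7 TPM (permutation adjusted p = 0.022, but 0.29 in females alone and 0.18 in males alone). Dcx, Sox11 and Tubb2b are also members of the axon growth list, so these sums are not separate results. Tubb2b, which did not pass, is a large part of the neuroblast sum. Its medians were 313 and 356 TPM in the CTL sets, 346 and 478 TPM in LB, and 380 and 412 TPM in UPS.

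Other genes that fell included Gp1bb, a platelet glycoprotein subunit (-0.55), Gpsm3, a regulator of G protein signalling (-0.52), H2-D1, a class I histocompatibility antigen (-0.40), and Gng4, a G protein gamma subunit (-0.37). H2-D1 lay in LB from 19.4 to 31.7 TPM in high-Mog pups and from 24.2 to 71.0 TPM in low-Mog pups, and its limma adjusted p was 0.015. Gp1bb had a limma adjusted p of 0.0383 that missed the threshold in 16 of the 42 fits without 1 pup, up to 0.0836 without the male LB pup 5. The count of calls among 14 glucocorticoid genes changed without the low-Mog female UPS pup 2, in which the list summed to 2687 TPM against 1066 TPM in the next pup of its set. Over all 13057 genes, 377 were higher and 145 lower with that pup, and 456 and 207 without it. Of the list, 0 were higher and 1 was lower with that pup, and 3 were higher and 1 lower without it, with a list median of 0.06 in place of 0.01. The lower gene was Cdkn1a, a cyclin-dependent kinase inhibitor (-0.32, limma adjusted p = 0.0205, and -0.25 with 0.0307 without the female UPS pup 2, in which it stood at 48.7 TPM).

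Few genes of the lists of neuronal state passed, but some of their sums differed. Of 16 genes that switch during neuronal maturation, 2 were higher, where 2.89% of all genes were higher. They were Slc12a2, the chloride importer NKCC1 (0.27, limma adjusted p = 8.4e-06), and Snap25, a synaptic vesicle fusion protein (0.11, limma adjusted p = 0.0146). Slc12a2 was at 37.3 ± 3.98 TPM and 30.1 ± 3.95 TPM (SD, n = 21 each). The receptor subunits Grin2a (0.03) and Grin2b (-0.07), whose ratio shifts as synapses mature, did not pass. The list's sum was higher in high-Mog pups by 355 TPM (permutation adjusted p = 0.0064). Of 13 markers of CA1 and CA3 pyramidal neurons, 8 had a negative difference and the median was -0.04. The only member that passed, Spink8, a protease inhibitor, was higher (0.20, limma adjusted p = 0.0211), where 2.89% of all genes were higher. The sum of the list was lower, as given above. Of 15 neuropeptide and secretory genes, 1 was higher, a share near the 2.89% of all genes. It was Penk, the enkephalin precursor (0.21, limma adjusted p = 0.013). Of 11 thyroid hormone genes, 1 was lower, where 1.11% of all genes were lower. It was Thra, a thyroid hormone receptor (-0.13, limma adjusted p = 0.026). Thra missed the threshold without the female LB pup 3 (0.0504) or the male LB pup 5 (0.0547), and the list's count was 3 without the female UPS pup 2. The sum of the thyroid list was lower in high-Mog pups (median 3889 against 4422 TPM, permutation adjusted p = 0.025, with no sex term). The high-Mog set held more females, and within a sex the medians lay closer. They were 3812 against 4020 TPM in females and 4391 against 4548 TPM in males. Neither this sum nor that of the maturation list passed in either sex alone. None of 13 immediate early genes, 11 insulin-like growth factor genes and 12 cell cycle genes passed in limma, where 1, 1 and 0 had an unadjusted p under 0.05.

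**Figure D3:**
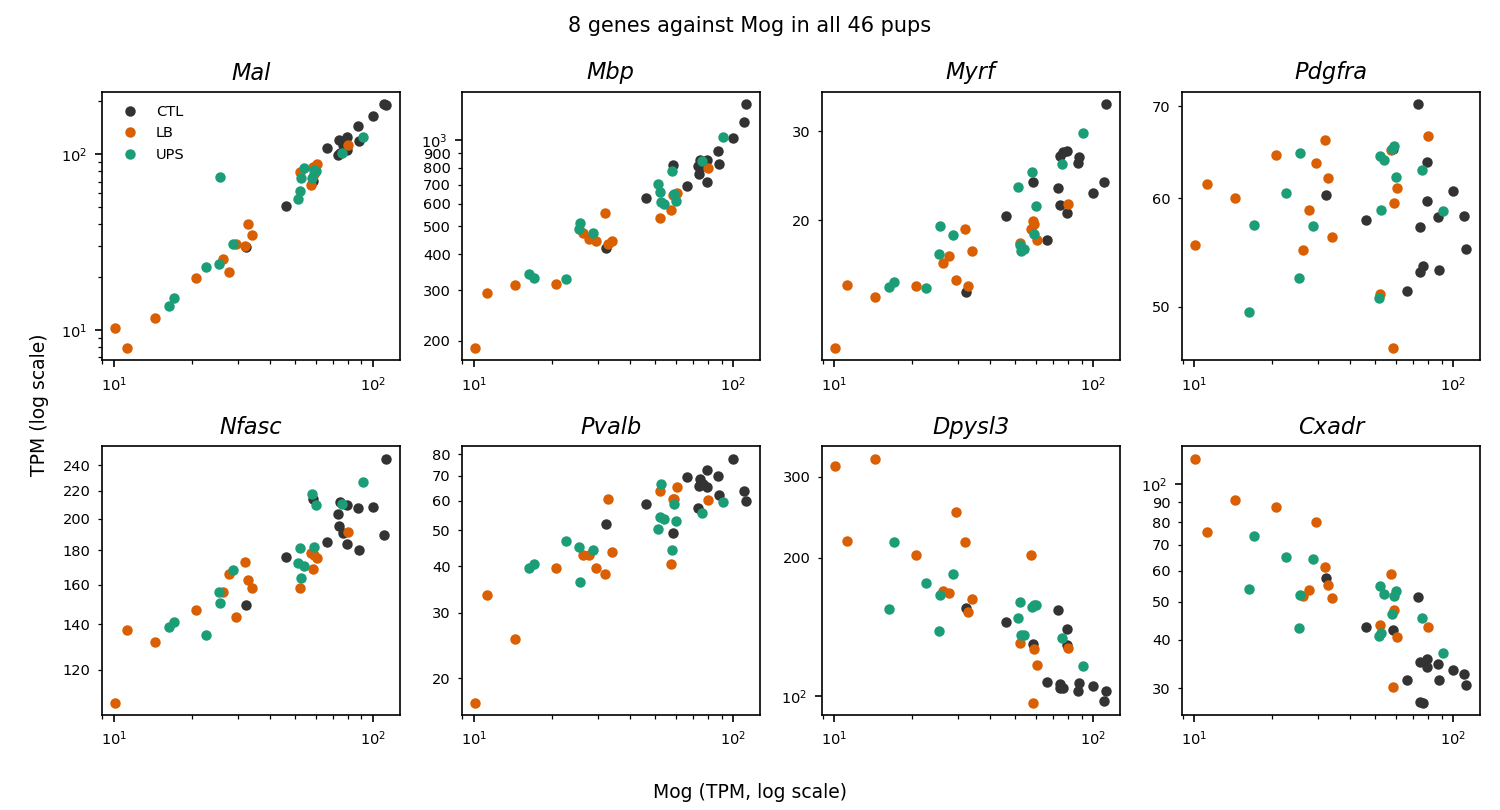
TPM of 8 genes (vertical axes, log scale) against Mog in TPM (horizontal axis, log scale), 1 point per pup for all 46 pups, coloured by rearing. Mal, Mbp, Myrf, Nfasc and Pvalb are higher and Dpysl3 and Cxadr lower in high-Mog pups, with differences of 1.48, 0.71, 0.37, 0.28, 0.41, -0.42 and -0.48, while Pdgfra has 0.00.

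Among markers of other cells, those of astrocytes included genes that were higher. Of 14 astrocyte markers, 4 were higher, against 2.89% of all genes, namely S100b (0.29, limma adjusted p = 0.00979), which oligodendrocytes also express, Ntsr2 (0.17), Clu (0.15) and Aldoc (0.11). The summed astrocyte level was higher in high-Mog pups by 257 TPM on average within rearing (4521 to 5373 TPM against 4214 to 5372 TPM, permutation adjusted p = 0.0085). The sum passed in females alone (adjusted p = 0.03) and not in males alone (0.61). Gfap, an intermediate filament of astrocytes, had a difference of -0.09 and did not pass. Ntsr2, Aldoc and Clu each missed the threshold without some single pups (up to 0.0807, 0.0687 and 0.0567, each without the male LB pup 5). The count of 4 fell to 1 without the male LB pup 5 and to 2 without the male LB pup 2 or the female LB pup 9. None of the markers of microglia (14), endothelium and pericytes (13), meninges (9), blood (5), thalamus (6), neocortex (7) or dentate granule neurons (10) passed in limma, where 1, 3, 0, 0, 2, 1 and 4 had an unadjusted p under 0.05. Summed microglial markers lay from 530 to 638 TPM and from 510 to 915 TPM, and the highest was the female UPS pup 2. Ttr, a defining marker of choroid plexus, lay from 5.93 to 2500.3 TPM in high-Mog pups and from 0 to 1838 TPM in low-Mog pups. Only 3 choroid plexus and ependyma genes passed the filter on low values, and 0 of these passed the limma test (1 had an unadjusted p under 0.05). The part of these tissues in the differences above was not tested.

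The median difference of the mature oligodendrocyte genes was 0.51 in CTL, 0.90 in LB and 0.77 in UPS, in the same order as the split in Mog itself. Other lineage lists had another order. The lineage transcription factors had medians of 0.11, 0.08 and 0.29, the committed and newly formed genes 0.06, 0.09 and 0.23, and the galactolipid and ceramide enzymes 0.09, 0.21 and 0.26. Within 1 rearing, limma called 0 genes in CTL (800 had an unadjusted p under 0.05), 473 in LB and 103 in UPS. No gene passed the test of whether the difference differs among the rearings (1334 had an unadjusted p under 0.05 in limma), so no gene was shown to vary with set differently by rearing. For Cxadr, the differences were -0.29 in CTL, -0.85 in LB and -0.30 in UPS (interaction adjusted p = 0.42 in limma), and for Pvalb they were 0.16, 0.73 and 0.35 (interaction adjusted p = 0.42).

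**Figure D4:**
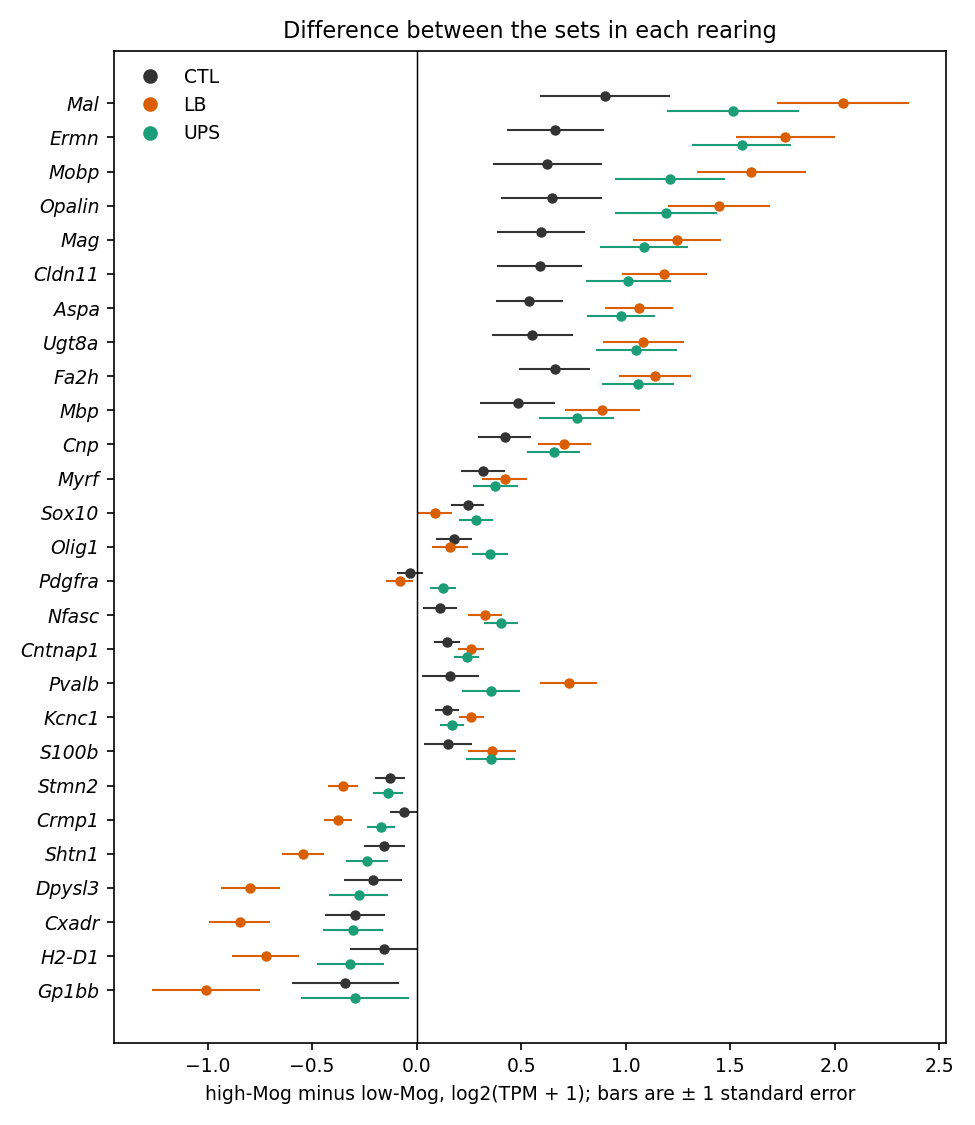
Difference between the high-Mog and low-Mog sets on the log2(TPM + 1) scale (horizontal axis) for 27 genes in CTL, LB and UPS, with bars of 1 standard error from limma. Mal has 0.90 in CTL, 2.04 in LB and 1.52 in UPS, and Cxadr has -0.29, -0.85 and -0.30.

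Complete separation of the sets was rare, and its direction differed between rearings as a count. In CTL, the 7 high-Mog pups were all above the 7 low-Mog pups for 15 genes (0.115%) and all below for 1 gene (0.00766%). In LB, they were all above for 19 genes (0.146%) and all below for 68 (0.521%). In UPS, they were all above for 51 genes (0.391%) and all below for 2 (0.0153%). Of the 37 mature oligodendrocyte genes, 4 separated upward in CTL, 11 in LB and 7 in UPS. Whether these counts differ between rearings was not tested.

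The 68 genes that separated downward in LB (0.521% of all genes) included 3 of the 27 axon growth genes. Some of the 68 are named here after their values were seen. Mapt, the microtubule protein tau, lay from 164 to 309 TPM in high-Mog and from 315 to 435 TPM in low-Mog LB pups. Stmn1, a relative of Stmn2, lay from 208 to 265 TPM and from 268 to 312 TPM. Met, the receptor of hepatocyte growth factor, lay from 4.18 to 6.98 TPM and from 7.68 to 11.4 TPM, and Mpped1, a metallophosphoesterase, lay from 47.8 to 146 TPM and from 154 to 175 TPM. In CTL and UPS the sets overlapped for these 4 genes, and none of them passed over the 3 rearings (limma adjusted p from 0.23 to 0.56).

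Each sex was also fitted alone. Any batch that followed the labelled sex cannot be told apart from it. Among the 23 female libraries, limma called 128 of 13057 genes higher and 19 lower, and among the 19 male libraries it called 24 of 13057 higher and 1 lower. Of the 37 mature oligodendrocyte genes, 27 passed in females alone and 18 in males alone, and 36 and 37 differences were positive. The difference of Mal was 1.31 in females and 1.66 in males, that of Pvalb 0.51 and 0.29, and that of Dpysl3 -0.42 and -0.43. Mal passed in each sex alone (limma adjusted p = 0.012 and 0.0209). Pvalb (0.0572 and 0.434) and Dpysl3 (0.0961 and 0.342) did not pass in either. Of the 27 axon growth genes, 2 were lower in females alone and 0 in males alone. No gene passed the test of a difference between the sexes (489 had an unadjusted p under 0.05 in limma).

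Some list counts depended on the pups that stood apart. Over all 13057 genes, 456 were higher and 207 lower without the female UPS pup 2, and 353 and 121 without the 2 females numbered 9. Without the female UPS pup 2, 32 of the 37 mature oligodendrocyte genes were higher, 8 axon growth genes were lower in place of 5, and 1 progenitor gene was lower. Also without it, 2 neuroblast genes were lower in place of 1, 3 glucocorticoid genes were higher in place of 0, and 1 gene each passed of the microglia and sterol lists (higher) and of the insulin-like growth factor and cell cycle lists (lower). Without the 2 females numbered 9, 31 mature oligodendrocyte genes were higher and 5 axon growth genes lower. Without the male UPS pup 7, the counts were 32 and 6.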

How the data were processed

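Left hippocampi of 46 pups were sequenced as poly(A)-selected RNA. The authors trimmed reads, aligned them with HISAT2 to mm10 and computed TPM with StringTie (versions not given in the sources used here), and deposited TPM per library. Results of DESeq2 tests run by the authors (a log2 change, a p-value and its adjustment per gene) were also deposited and were not used. The 13057 genes besides Mog that averaged 3 TPM or more were tested on log2(TPM + 1) by limma 3.58.1 (R 4.3.3, variance trend) with set, rearing and sex, and p-values were adjusted by Benjamini-Hochberg over all genes tested. A fold change on this scale understates the change of low genes. The code was tested on simulated data. Library measures and list sums were compared by 100000 permutations of the set within rearing, with no sex term. Genes were named as the 12 largest increases and 12 largest decreases among those called with the same sign in each rearing, the 10 genes most like and 5 most opposite to Mog, the 3 smallest p-values of each list with the member farthest against it, and fixed lineage genes. Others are said to be named after their values were seen, as are further members of the lists. The sets and lists were chosen with earlier results of these data known. Replicates are separate pups, and litters could not be modelled. Alternatives covered pseudocount, filter, scaling, covariates, block, weights, sex and each pup left out. Promoter letters came from RefSeq (GRCm38.p6). A result that needs a withheld gene is not reported here.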

Additional observations from a re-analysis of the deposited data

Results flagged for a closer look

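Within each set of 7 pups of a rearing, the highest or lowest pup stood apart from the others by Dixon's criterion in 63 of 714 groups. A rate of about 1 in 20 holds only for independent, normally distributed values. TPM were not transformed here and some items overlap, as Ttr and its list sum do, so the count cannot be set against that rate. Values are TPM, with the nearest other pup of the set after each for the pups named first. The low-Mog female UPS pup 2 accounted for 11 of the 63. It was lowest in the summed committed and newly formed oligodendrocyte genes (747, next 854), the summed sterol and fatty acid synthesis genes (1357, next 2277), the summed cell cycle genes (213, next 319), Olig2 (12.9, next 29.6), S100b (46.2, next 92.1) and Scd2 (522, next 733), and highest in the summed microglia markers (915, next 642), the summed glucocorticoid receptors and targets (2687, next 1066), Anln (34.2, next 10.8), Cdkn1a (48.7, next 26) and Grin2b (185, next 138). The low-Mog male UPS pup 7, whose Mog lay next to the high-Mog set, accounted for 5. It was highest in Cldn11 (177, next 118), Erbb3 (4.39, next 2.73), Ermn (12.9, next 7.02), Gsn (67.5, next 42.1) and Ugt8a (71.2, next 48.4).

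The low-Mog female CTL pup 2 was lowest in Adamts4 (10.3), Cnp (217), Elovl1 (12.2) and Gsn (33.9). The low-Mog female CTL pup 3 was highest in Degs1 (109). The high-Mog female CTL pup 5 was lowest in Mpped1 (34.3) and Spink8 (33.6), and highest in Ank3 (270.3). The high-Mog female CTL pup 6 was lowest in the summed activity-regulated secretory and neuropeptide genes (2487). The low-Mog male CTL pup 1 was lowest in Nefh (50.2). The high-Mog male CTL pup 3 was highest in Cnksr3 (16.4), Gsn (150.2) and Mag (320.1). The high-Mog male CTL pup 6 was highest in Gp1bb (39.1). The low-Mog male CTL pup 7 was lowest in Reln (37.1), and highest in the summed activity-regulated secretory and neuropeptide genes (3099). The low-Mog female LB pup 1 was lowest in the summed CA1 and CA3 pyramidal neuron markers (759) and the summed activity-regulated secretory and neuropeptide genes (2760.1). The high-Mog female LB pup 2 was highest in Degs1 (116) and Zfp488 (7.19). The low-Mog female LB pup 3 was highest in the summed glucocorticoid receptors and targets (1171) and Id4 (60.6). The high-Mog female LB pup 5 was highest in the summed dentate granule neuron markers (341). The high-Mog female LB pup 7 was lowest in Mapt (164). The high-Mog male LB pup 3 was lowest in Vip (20.0), and highest in the summed choroid plexus and ependyma markers (2588), Enpp2 (315), Gp1bb (15.7) and Ttr (2500.3). The high-Mog male LB pup 5 was highest in Gad1 (401) and Ntsr2 (112). The low-Mog male LB pup 7 was highest in Gad1 (315). The high-Mog female UPS pup 3 was highest in Degs1 (123). The high-Mog female UPS pup 4 was highest in H2-D1 (33). The high-Mog female UPS pup 5 was lowest in Crmp1 (281) and Scn8a (108). The low-Mog female UPS pup 6 was lowest in Kcnc1 (67.3), and highest in Degs1 (115). The high-Mog female UPS pup 7 was highest in Elovl1 (24.6). The high-Mog male UPS pup 2 was highest in the summed choroid plexus and ependyma markers (766), Enpp2 (163) and Ttr (719). The low-Mog male UPS pup 3 was highest in Crmp1 (440.3). The high-Mog male UPS pup 4 was lowest in Mapt (179), and highest in Basp1 (1205). The low-Mog male UPS pup 6 was highest in the summed choroid plexus and ependyma markers (1416) and Ttr (1359.5). The cause of these values was not tested.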

How the results depend on the processing

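Alternatives changed the number of calls more than the direction of the genes named. The count of 377 higher and 145 lower genes ran from 303 (without the male LB pup 5) to 456 higher and from 77 to 214 lower over the 42 fits that each left out 1 pup, and the counts of genes with a rearing or sex interaction stayed at 0 in each. With no filter on low values, 307 genes were higher and 93 lower. Quantile normalization gave 327 and 258, library weights 535 and 263, and Mog as a continuous term over all 46 pups 541 and 761. Female libraries alone gave 128 and 19, and male libraries alone 24 and 1, from fewer samples. The rearing interaction passed for 1 gene with library weights and for 2 in males alone. Whether the sample numbers pair the pups is not known. Same-numbered male and female pups had a median correlation of deviations of 0.07, and 7 of 20 pairs exceeded 0.1. Pups of unlike number were not compared, so these values cannot decide it. With the number as a replicate block, 415 genes were higher and 161 lower. Fits without the number 9 females (353 and 121) and without the female UPS pup 2 (456 and 207) were chosen after seeing the data.

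Differences near 0 changed sign. Pdgfra (0.00) had -0.00473 after quantile normalization, -0.00378 with the mitochondrial share as a covariate, -0.00149 with library weights, -0.0045 without the number 9 females, and -0.0115 to -0.00073 in 10 fits without 1 pup. Anln had -0.0158 with the mitochondrial share, -0.10 in females alone, and -0.0125 to -0.0046 in 4 fits without 1 pup. Degs1 had 0.0134 with rearing alone and 0.0108 in males alone, Ank3 had 0.0104 in males alone and Mpped1 had 0.0128 in females alone. With Mog as a continuous term, Ndrg1 had -0.0357 and Ttr had -0.43. The cause was not tested. The female UPS pup 1, whose labels name both LB and UPS, was in neither set. Counted as LB, an alternative chosen after seeing the data, it entered the high-Mog LB set in place of the male LB pup 3, and 481 genes were higher and 160 lower, with 32 of the 37 mature oligodendrocyte genes higher. TPM keep no depth, so the precision of a single value is unknown, and n = 21 a set limits what small differences can pass.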
